A study of Mus musculus with 6 samples.

Results

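The 49 genes described here act in DNA replication or in mitosis, and they are used across tissues to tell dividing cells from resting ones. They were listed by name and not by any value measured here: 23 belong to S phase, when the genome is copied, and 26 to G2 and M phase, when the copies are checked and divided. All 49 were found among the 34203 rows of the count matrix, of which 21136 genes held at least 1 UMI. A UMI (unique molecular identifier) is a random tag that marks 1 captured mRNA molecule near its 3′ end, so levels are given as CPM (UMIs per 1000000 UMIs) and were not divided by gene length.

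The cells came from the subventricular zone (SVZ), the stem cell niche beside the lateral ventricle, of adult Nestin-CreERT2:R26-yfp mice of both sexes. In these mice tamoxifen turns on YFP in cells in which the nestin promoter is active, and their progeny keep it, so neural stem and precursor cells (NSPCs) were sorted as YFP+ cells and microglia as CD11b+ cells with low CD45. All mice carried these alleles and received tamoxifen, and the conditions were uninjured, 1 day after a cortical photothrombotic stroke (PT D1) and 7 days after it (PT D7), with 2 mCEL-Seq2 libraries each. The SVZ of the stroke side was taken, and no source used here gives the number of mice behind a library, so p values measure the spread between libraries, which may be partly technical.

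The matrix held 658 cells, of which the authors placed 222 in the NSPC class, 416 in the microglia class and 20 in neither (labelled Unknown/Ependymal). Libraries held 74 to 147 cells and 413299 to 1020667 UMIs. NSPCs were unevenly spread: the library numbered 1 of each condition held 15 to 19 of them, and the library numbered 2 held 52 to 61. Cells of a library are told apart by a barcode, and 164 barcodes occurred in more than 1 library. The median NSPC held UMIs of 7 of 16 NSPC markers and 3 of 10 microglial markers. In the microglia class 405 cells held UMIs of at least as many microglial as NSPC markers, with medians of 9 and 2. The other 11 held more NSPC than microglial markers (medians of 7 and 2), all of them in libraries numbered 2 (4 uninjured, 5 from PT D1 and 2 from PT D7). These 11 cells held 2.69% of the UMIs of the microglia class and 28.6% of its UMIs of the 49 genes, so microglial values are given with and without them. The lists differ in length, and by the summed level of the markers NSPC markers were the higher in 7 of the 11, microglial markers in 3, and 1 cell was equal, so not all 11 plainly go against their label. A single NSPC, a quiescent type B cell of PT D7 library 1, held more microglial (10) than NSPC markers (8). The NSPC UMIs of that library were 82504 with this cell and 69813 without it.

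Adult SVZ neurogenesis runs from quiescent type B stem cells through activated type B cells, which re-enter the cell cycle, to fast-dividing type C cells and then to neuroblasts, which divide less and migrate. In a dividing cell the MCM helicase is loaded on origins in G1, opens the DNA in S phase, and is followed by the polymerase clamp and by enzymes that supply nucleotides. Cyclin B with Cdk1 then starts mitosis, the spindle checkpoint holds the chromosomes until all are attached, and the anaphase-promoting complex releases them. S-phase genes are known targets of E2F factors. Many G2/M genes are repressed in resting cells by the DREAM complex and turned on by MuvB with B-Myb and FoxM1 through an element called CHR, commonly beside CCAAT boxes that NF-Y binds.

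These elements were looked for in the promoters because the 2 groups of genes are known to differ in them. RefSeq promoters (build GRCm38.p6) were matched by symbol or synonym for 41 of the 49 genes, and 3 genes had a pair of promoters. Of the 250 bases before the start, the CHR letters (TTTGAA or else TTCGAA, on either strand) were in 10 of 22 promoters of G2/M genes (45.5%), in 4 of 22 of S-phase genes (18.2%) and in 17.1% of all 32851 promoters of the table. CCAAT on either strand was in 19 of 22 (86.4%), 14 of 22 (63.6%) and 33.8%. Both together were in 10 of 22 (45.5%), 3 of 22 (13.6%) and 6.02%. An E2F core (TTGGCGC or else TTCCCGC or else TTCGCGC or else TTGCCGC, on either strand) was in 4 of 22 (18.2%), 12 of 22 (54.5%) and 7.89%. A match of letters is a description and not a bound site, the groups were not matched for base composition, and the promoter table says nothing about binding in these cells.

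The promoters of the 2 S-phase and 4 G2/M genes with most NSPC UMIs that held a motif are printed below, to show how the elements sit before the start. Each run is the 150 bases just before the start, 5′ to 3′ on the strand of the gene, and capitals mark the CHR letters, CCAAT boxes and the E2F core on either strand, which do not overlap in these runs. Positions on GRCm38.p6 are 2810417H13Rik chr9:65890173-65890322 on the plus strand, Pcna chr2:132253181-132253330 on the minus strand, Hmgb2 chr8:57511693-57511842 on the plus strand, Top2a chr11:99024190-99024339 on the minus strand, Mki67 chr7:135716380-135716529 on the minus strand and Ube2c chr2:164769779-164769928 on the plus strand.
2810417H13Rik: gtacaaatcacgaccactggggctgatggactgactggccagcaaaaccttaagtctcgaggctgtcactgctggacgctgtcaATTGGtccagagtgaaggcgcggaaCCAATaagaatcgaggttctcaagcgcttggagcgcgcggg
Pcna: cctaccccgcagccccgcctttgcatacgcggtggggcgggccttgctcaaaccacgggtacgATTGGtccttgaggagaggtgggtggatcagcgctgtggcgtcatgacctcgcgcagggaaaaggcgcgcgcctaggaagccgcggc
Hmgb2: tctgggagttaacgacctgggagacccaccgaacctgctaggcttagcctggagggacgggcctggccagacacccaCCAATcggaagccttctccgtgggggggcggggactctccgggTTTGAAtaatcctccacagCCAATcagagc
Top2a: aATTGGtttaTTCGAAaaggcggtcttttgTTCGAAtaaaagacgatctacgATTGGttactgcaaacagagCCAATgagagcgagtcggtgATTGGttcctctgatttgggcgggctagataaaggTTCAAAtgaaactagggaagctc
Mki67: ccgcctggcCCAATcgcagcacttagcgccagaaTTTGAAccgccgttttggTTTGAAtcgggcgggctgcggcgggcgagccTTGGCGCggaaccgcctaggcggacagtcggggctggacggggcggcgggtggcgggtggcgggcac
Ube2c: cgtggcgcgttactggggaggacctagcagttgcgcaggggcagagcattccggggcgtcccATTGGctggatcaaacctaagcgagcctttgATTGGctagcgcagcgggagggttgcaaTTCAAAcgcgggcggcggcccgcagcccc
All 4 G2/M promoters held a CHR match and at least 1 CCAAT in these 150 bases, and neither S-phase promoter held a CHR match. The CHR match nearest the start lay 30 bases before it in Hmgb2, 29 in Ube2c, 23 in Top2a and 98 in Mki67. Top2a held 3 CHR and 4 CCAAT matches, and Mki67, which held 2 CHR matches, was the 1 of the 6 with an E2F core, 67 bases before the start.

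In NSPCs the 49 genes were mainly signals of activated type B and type C cells. They held 12262 UMIs in NSPCs, of which type C cells gave 45.6% and activated type B cells 39.6%, neuroblasts 12.5% and quiescent type B cells 2.33%, although neuroblasts made up 36.0% and quiescent cells 22.5% of NSPCs. The summed level of the 23 S-phase genes was 5021 CPM in type C cells and 3920.2 in activated type B cells, against 726 in neuroblasts and 342 in quiescent type B cells. For the 26 G2/M genes the sums, in the same order, were 9126, 7739.5, 2597 and 608. Type C cells had the highest level for 35 genes and activated type B cells for 14. The authors drew the subclusters from the expression of these same cells, these genes included, so the differences between subclusters are descriptions and carry no test.

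**Figure D1:**
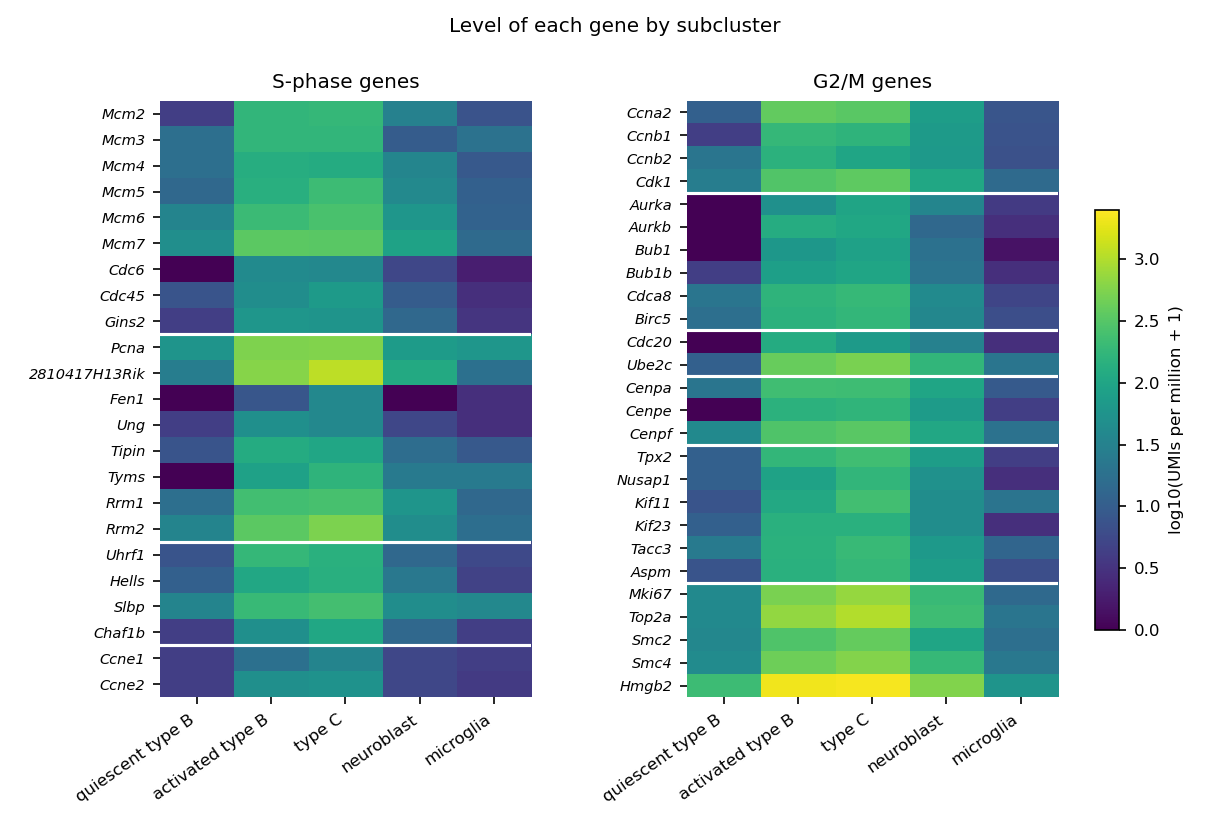
Level of each gene, as log10 of CPM plus 1, in the 4 NSPC subclusters and in the 405 cells of the microglia class with no more NSPC than microglial markers, with white lines between groups of genes by role. Activated type B and type C columns are the brightest, neuroblasts are brighter for G2/M than for S-phase genes, and 8 genes had no UMI in quiescent type B cells.

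Summed over the subcluster, neuroblasts held more of the G2/M than of the S-phase signal, and a minority of the cells carried it. The median ratio of the type C to the neuroblast level was 7.12 for S-phase genes and 3.19 for G2/M genes. The level in neuroblasts was above that in quiescent type B cells for 47 of the 49 genes, the others being Mcm3, lower in neuroblasts, and Fen1, which had no UMI in either. In summed counts the G2/M genes held 3.58 UMIs for each S-phase UMI in neuroblasts, against 1.82 in type C cells, 1.97 in activated type B cells and 1.78 in quiescent type B cells. The 20 of 80 neuroblasts with at least 3 of the genes after thinning to 1000 UMIs held 7275 CPM of G2/M and 1325 of S-phase genes, and the other 60 held 544 and 463. By library the ratio in neuroblasts was 1.85 and 3.29 (uninjured), 1.09 and 3.15 (PT D1), and 2.38 and 6.01 (PT D7). In type C cells it was 1.94 and 1.66 (uninjured), 1.53 and 0.924 (PT D1), and 0.637 and 2.97 (PT D7). The neuroblast ratio was the higher in 4 of 6 libraries, and the exceptions, uninjured library 1 and PT D1 library 1, held 6 and 4 neuroblasts.

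Summed S-phase levels in type C cells were 4936 and 5705 (uninjured), 5117 and 5506 (PT D1), and 6303 and 3929 (PT D7). Summed G2/M levels there were 9579 and 9449.8 (uninjured), 7851 and 5089.9 (PT D1), and 4016 and 11658 (PT D7). In activated type B cells the G2/M sums were 9766 and 9255 in uninjured mice, 8227 and 5005 at PT D1, and 10053 in PT D7 library 2, since PT D7 library 1 held no such cell. Both PT D1 libraries were thus below both uninjured libraries for G2/M genes in type C and in activated type B cells, while the type C libraries of PT D7 were the lowest and the highest of all. In activated type B cells this also held for the S-phase sums, at 3920 and 4763 (uninjured) and 3779 and 3525 (PT D1). Quiescent type B cells went the other way for G2/M genes, at 417 and 461 (uninjured), 668 and 908 (PT D1), and 362 and 587 (PT D7). The value of 908 rested in large part on 2 of the 14 quiescent cells of that library, which the authors called G2M. These 2 cells held 4922 CPM of G2/M genes, against 470 in the 47 quiescent cells called G1. In neuroblasts the G2/M sums were 722 and 2399.5 (uninjured), 662 and 2049.6 (PT D1), and 5333 and 3667 (PT D7), and the 2 PT D7 values were the highest. Several of these values rest on 3 to 6 cells.

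**Figure D2:**
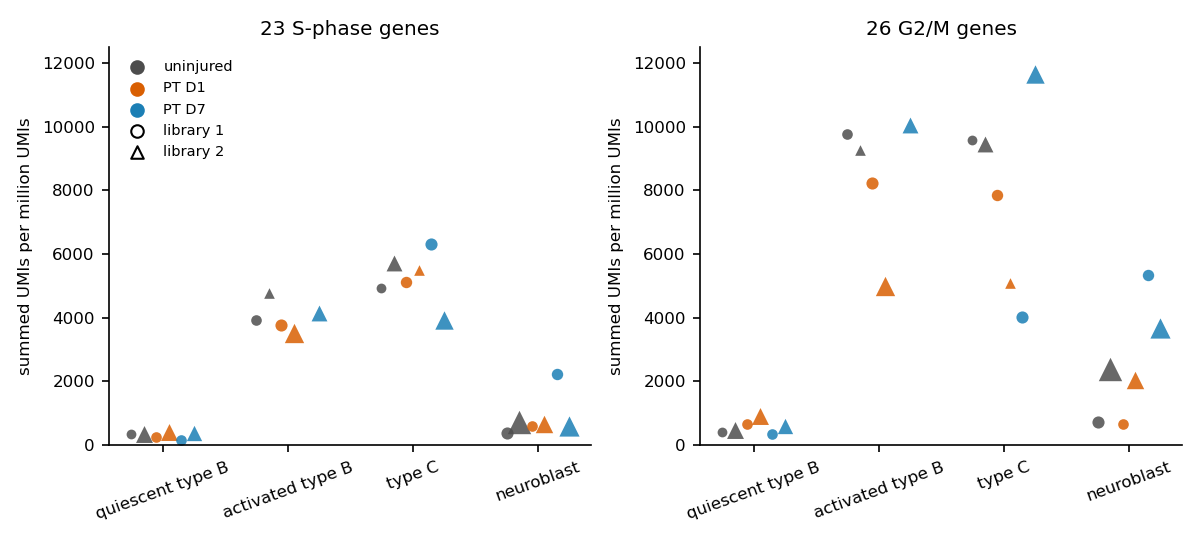
Summed CPM of the 23 S-phase genes (left) and the 26 G2/M genes (right) in each NSPC subcluster and library, with circles for library 1, triangles for library 2, colors for the condition and larger symbols for more cells. The S-phase sums of type C cells lie between 3929 and 6303, whereas their G2/M sums run from 4016 in PT D7 library 1 to 11658 in PT D7 library 2.

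The next paragraphs take the genes by role and give for each the level in all NSPCs of a library (TMM-scaled CPM, uninjured libraries 1 and 2 first, then PT D1 libraries 1 and 2, then PT D7 libraries 1 and 2) for every gene with a mean of at least 50. Subcluster levels are CPM in quiescent type B, activated type B, type C cells and neuroblasts, in this order. In bulk sums over a class, fewer dividing cells and less RNA of a gene per cell cannot be told apart. PT D7 library 1 held 82504 NSPC UMIs and uninjured library 1 held 116190, the fewest of the libraries. The lowest levels there, 13.2 for Aurka and 9.58 for Gins2, rest on a single UMI each. Orders and ratios of libraries at such levels are uncertain.

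Licensing and helicase genes gave no call, and their libraries mostly overlapped between conditions. Mcm2, a subunit of the MCM ring, stood at 38.3 and 131, 96.9 and 124, and 119 and 119.8. Mcm3 was at 153 and 75.0, 119 and 114, and 159 and 111 and Mcm4 at 95.8 and 77.4, 112 and 118, and 106 and 68.5. Both PT D1 libraries were above both uninjured libraries for Mcm4. Mcm5 was at 86.2 and 109, 134 and 114, and 185 and 123, and Mcm6 at 144 and 159.7, 194 and 161, and 278 and 157. Mcm7 reached 278 and 203, 261 and 252, and 318 and 251. For Mcm5 both libraries of each PT condition exceeded both uninjured libraries, and PT D7 library 1 was the highest library for Mcm3, Mcm5, Mcm6 and Mcm7. Levels by subcluster were 3.32, 171, 185 and 30.4 for Mcm2 and 33.2, 209, 268 and 60.9 for Mcm6. Cdc6, which loads the ring, and Cdc45, which with the GINS complex turns it into the active helicase, were too low for the test, with 34 and 53 UMIs in all NSPCs, and Gins2, a GINS subunit, was at 9.58 and 31.4, 52.2 and 37.0, and 66.2 and 48.5, with all 4 PT libraries above both uninjured ones.

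Fork and nucleotide genes held the lowest p values among the S-phase genes. Pcna, the sliding clamp of the polymerases, was at 383 and 327, 477 and 373, and 371 and 362. Its partner 2810417H13Rik (Pclaf), a PCNA-binding protein, was at 623 and 617, 582 and 400.1, and 834 and 542. Rrm1, the large subunit of ribonucleotide reductase, stood at 105 and 114, 209 and 192, and 251 and 197. All 4 PT libraries were above both uninjured libraries for Rrm1, with a log2 fold change of 0.83 ± 0.31 (SE) for PT D1 and 0.94 ± 0.32 (SE) for PT D7, neither of which passed (edgeR quasi-likelihood test, adjusted p = 0.195 and 0.765). Rrm2, its small subunit, was at 278 and 307, 365 and 205, and 318 and 271, so the PT libraries lay on both sides of the uninjured ones. Tipin, which protects stalled forks together with Timeless, was at 38.3 and 50.8, 89.5 and 121, and 39.7 and 68.5. Both PT D1 libraries exceeded all the others for Tipin, and at 1.19 ± 0.41 (SE) it had the lowest p of the 43 genes tested at PT D1 (edgeR unadjusted p = 0.0079, adjusted p = 0.144). Tyms, which makes thymidylate, was at 115 and 72.6, 44.7 and 63.9, and 172 and 85.6, and both PT D7 libraries were above both PT D1 libraries. Fen1, which trims Okazaki flaps, and Ung, which removes uracil from DNA, held 18 and 38 UMIs and were not tested. Type C cells held 1153 CPM of 2810417H13Rik and 534 of Rrm2, against 608 and 343 in activated type B cells.

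Genes that rebuild chromatin behind the fork gave no common order of conditions. Uhrf1, which brings the maintenance methyltransferase to new DNA, was at 115 and 91.9, 104 and 138, and 66.2 and 88.5, with both PT D7 libraries below the other 4. Hells, a chromatin remodeler, was at 76.6 and 96.8, 82.0 and 74.0, and 106 and 65.6. Slbp, which binds the stem-loop of histone mRNAs, was at 182 and 133, 149 and 175, and 146 and 143, and Chaf1b, a subunit of the histone chaperone CAF-1, at 67.1 and 31.4, 96.9 and 47.1, and 92.6 and 42.8. The conditions overlapped for Hells and Chaf1b. Cyclin E genes, which drive entry into S phase, were low: Ccne1 held 23 and Ccne2 44 UMIs in all NSPCs, and neither was tested.

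Mitotic cyclins and Cdk1 split the PT D7 libraries. Ccna2, the cyclin of late S phase and G2, was at 259 and 201, 268 and 185, and 159 and 331. Ccnb1 was at 86.2 and 94.3, 171 and 74.0, and 79.4 and 214, and Ccnb2 at 105 and 87.1, 82.0 and 77.3, and 66.2 and 151. Cdk1, the kinase they activate, was at 239.5 and 213, 216 and 128, and 119 and 391. All 4 genes had their highest NSPC level in PT D7 library 2, and Ccna2, Ccnb2 and Cdk1 their lowest in PT D7 library 1. Levels of Cdk1 by subcluster were 26.6, 303, 362 and 106, and those of Ccnb2 19.9, 151, 98.6 and 67.4, which was the smallest ratio of type C to neuroblast level among the genes (1.46).

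In the mitotic kinase and checkpoint genes PT D7 library 1 was low again. Aurka, the kinase of spindle poles, was at 86.2 and 55.6, 44.7 and 13.4, and 13.2 and 91.3, with both PT D1 libraries below both uninjured libraries. Aurkb, the kinase of the chromosomal passenger complex, was at 95.8 and 43.5, 82.0 and 63.9, and 39.7 and 111. Its partners Cdca8 (borealin) and Birc5 (survivin) were at 86.2 and 126, 149 and 101, and 52.9 and 148 and at 163 and 77.4, 119 and 80.7, and 66.2 and 177. For each of these, PT D7 library 1 was the lowest library, for Aurka at 13.2 against 13.4 in PT D1 library 2. Bub1, a checkpoint kinase, was at 86.2 and 43.5, 44.7 and 26.9, and 26.5 and 74.2, and Bub1b (BubR1) at 67.1 and 55.6, 112 and 20.2, and 52.9 and 79.9. Aurka, Aurkb and Bub1 had no UMI among the 301177 of quiescent type B cells.

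Both genes of the anaphase-promoting machinery were low at PT D1 in library 2 and at PT D7 in library 1. Cdc20, which activates the complex, was at 105 and 70.2, 52.2 and 30.3, and 26.5 and 99.9. Ube2c, its ubiquitin-conjugating enzyme, was at 326 and 249, 276 and 141, and 119 and 656, and the PT D7 libraries were its lowest and its highest. Ube2c levels by subcluster were 9.96, 406, 519 and 169.5. Among centromere genes, Cenpa, the histone H3 variant that marks centromeres, was at 182 and 114, 224 and 111, and 39.7 and 285. The kinetochore motor Cenpe was at 144 and 119, 104 and 40.3, and 66.2 and 194 and the kinetochore protein Cenpf at 268 and 208, 239 and 121, and 146 and 348. Cenpa showed the widest gap between the PT D7 libraries (7.19-fold), where its level of 39.7 in library 1 rests on very few UMIs. For Cenpe both PT D1 libraries were below both uninjured libraries.

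Spindle genes held the single gene that passed the test. Tpx2, which nucleates spindle microtubules and activates Aurora A, was at 153 and 138, 171 and 94.1, and 92.6 and 208. Nusap1, which bundles microtubules, was at 57.5 and 119, 44.7 and 43.7, and 39.7 and 157. Kif11, the motor that separates spindle poles, was at 105 and 128, 82.0 and 60.5, and 66.2 and 179.8, and Kif23, the motor of the midbody, at 105 and 104, 67.1 and 53.8, and 52.9 and 159.8. For Nusap1, Kif11 and Kif23 both PT D1 libraries lay below both uninjured libraries and PT D7 library 2 was the highest of all. Tacc3, which stabilizes spindle microtubules, was at 76.6 and 109, 224 and 84.1, and 92.6 and 171, and there PT D1 library 1 was the highest. Aspm, a spindle-pole protein that keeps divisions of neural progenitors symmetric and whose loss causes microcephaly, was at 76.6 and 104, 59.7 and 67.2, and 159 and 225. Both PT D7 libraries exceeded the other 4 for Aspm, and both PT D1 libraries were below the uninjured ones.

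Chromosome genes completed the list. Mki67, the coat of mitotic chromosomes and the usual marker of proliferation, was at 459.9 and 414, 291 and 279, and 397 and 685. Top2a, the topoisomerase that untangles sister DNA, was at 757 and 631, 492 and 286, and 357 and 845. Both PT D1 libraries were below both uninjured libraries for these 2 genes, and for Mki67 both PT D7 libraries were above both PT D1 libraries. The condensin subunits Smc2 and Smc4 were at 412 and 213, 321 and 158, and 225 and 263 and at 422 and 411, 418 and 212, and 278 and 468. Hmgb2, a chromatin protein of dividing cells, was at 1734 and 1294, 1991 and 1426, and 701 and 1763, with PT D7 library 1 at less than every other library. By subcluster Mki67 was at 39.8, 524, 731 and 199.9, Top2a at 39.8, 716, 1017 and 222 and Hmgb2 at 212, 2097, 2231 and 563.

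**Figure D3:**
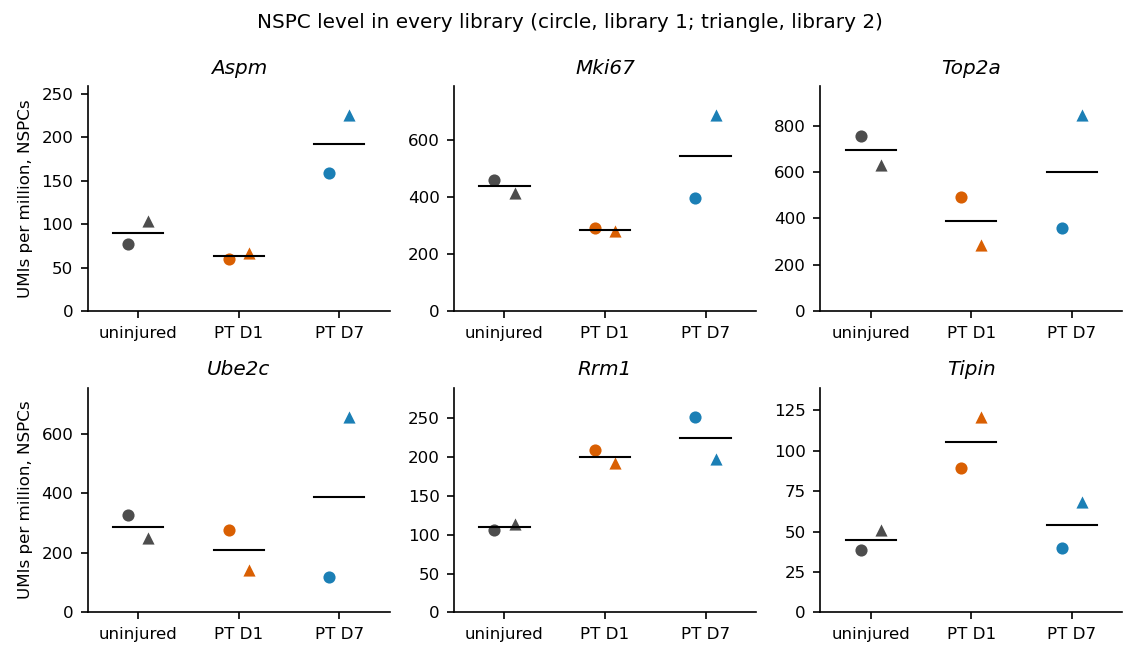
NSPC level of 6 genes in each library, in TMM-scaled CPM, with circles for library 1, triangles for library 2 and lines for the mean of the 2 libraries. For Aspm both PT D7 libraries (159 and 225) are above the other 4, whereas Ube2c and Top2a have their PT D7 libraries far apart and Rrm1 is higher in all 4 PT libraries than in the uninjured ones.

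Whether the stroke changed these genes in NSPCs was tested over libraries with 43 of the 49 genes (Cdc6, Cdc45, Fen1, Ung, Ccne1 and Ccne2 were too low). At PT D1 against uninjured, none of the 43 was called at an adjusted p under 0.05, where 2.12% of all 4907 genes tested were called, and DESeq2 called 0 as well. At an unadjusted p under 0.05 there were 8 genes: Tipin and Rrm1 higher, and Top2a, Nusap1, Mki67, Cenpe, Aurka and Cdc20 lower. Counts at an unadjusted p, here and below, are given without the share of all genes at that p. They name genes and are no result about the set. The fitted log2 fold change was above 0 for 13 of 17 S-phase genes (median 0.24) and for 6 of 26 G2/M genes (median -0.45), against 51.6% of all genes (median 0.03). For Top2a it was -0.87 ± 0.30 (SE) (edgeR quasi-likelihood test, adjusted p = 0.152) and for Mki67 -0.60 ± 0.27 (SE) (adjusted p = 0.288). Of the 26 G2/M genes 10 had both PT D1 libraries below both uninjured libraries and 0 had both above, and of the 17 S-phase genes 2 and 6. Over all 4907 genes tested 1081 and 1128 did. The G2/M median rested on PT D1 library 2: without it 13 of 26 were above 0 (median 0.00070), and without PT D1 library 1, 1 of 26 was (median -0.82). The log2 fold change of Top2a was -1.25 without PT D1 library 1, and -0.86 and -0.88 when 1 PT D7 library was left out.

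At PT D7 against uninjured, again 0 of 43 genes were called, where 0.0815% of all genes were, and DESeq2 called 0. An unadjusted p under 0.05 was reached by 3 genes, all higher: Aspm (log2 fold change 1.09 ± 0.33 (SE), edgeR quasi-likelihood test, adjusted p = 0.687), Rrm1 and Ccnb1 (0.91 ± 0.40 (SE), adjusted p = 0.995). Log2 fold changes were above 0 for 12 of 17 S-phase genes (median 0.25) and 22 of 26 G2/M genes (median 0.31), against 50.7% of all genes. This G2/M count turned on PT D7 library 2, since without it 1 of 26 was above 0 (median -0.82). Without PT D7 library 1, 25 of 26 were (median 0.63).

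Between PT D7 and PT D1, 1 of 43 genes was called, where 0.632% of all genes were: Aspm, with a log2 fold change of 1.66 ± 0.36 (SE) (edgeR quasi-likelihood test, adjusted p = 0.0275). An unadjusted p under 0.05 was reached by 12 genes, among them Mki67 at 1.01 ± 0.26 (SE) (edgeR adjusted p = 0.0844) and Cenpe at 1.30 ± 0.44 (SE) (adjusted p = 0.224). Ube2c was at 1.21 ± 0.41 (SE) (edgeR adjusted p = 0.231), and Tyms, the single S-phase gene among the 12, at 0.92 ± 0.44 (SE) (adjusted p = 0.454). Of the G2/M genes 25 of 26 had a log2 fold change above 0 (median 0.71), the exception being Hmgb2, and of the S-phase genes 10 of 17 (median 0.07), against 49.8% of all genes. This G2/M count also rested on PT D7 library 2: without it 3 of 26 were above 0 (median -0.42), and without PT D1 library 2 16 of 26 were (median 0.32). Both PT D7 libraries were above both PT D1 libraries for 2 of the 26 (7.69%), Aspm and Mki67, where 19.8% of all genes were. The 3 comparisons share libraries, so their counts are not independent of each other. For the 12 genes too, the share of all genes at an unadjusted edgeR p under 0.05 is not set beside the count. Aspm kept an adjusted p under 0.05 without TMM scaling, but not in DESeq2, with a replicate block, without PT D1 library 2 or without PT D7 library 2. Which genes were called changed with the library left out. Each of these fits leaves 1 library in a condition. The range of their counts is therefore given only with the dependence on processing, and is no result about the set.

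**Figure D4:**
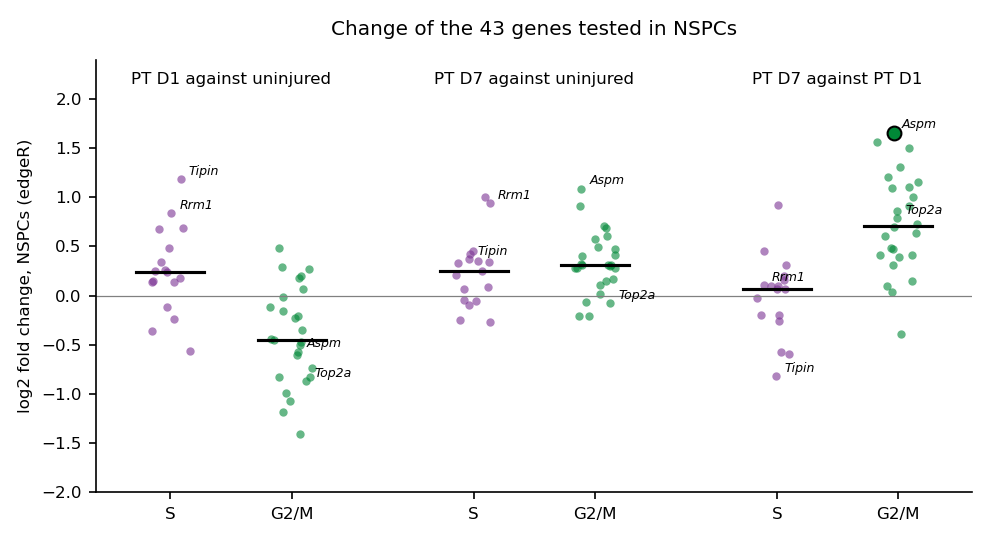
Log2 fold change in NSPCs of the 17 S-phase genes (purple) and 26 G2/M genes (green) tested, for each comparison, 1 point a gene with horizontal lines at the medians and a ringed point for the 1 gene called. The G2/M points lie mostly below 0 at PT D1 (median -0.45) and mostly above 0 between PT D7 and PT D1 (median 0.71, which became -0.42 without PT D7 library 2), and the S-phase medians are 0.24 and 0.07.

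The 2 libraries of a condition also differed from each other in these genes. At PT D7 all 26 G2/M genes were higher in library 2 than in library 1, by 1.17 to 7.19-fold (median 2.68), and 3 of 17 S-phase genes were (median 0.73), where 52.1% of all genes tested were. The widest of these ratios, that of Cenpa, rests on very few UMIs in library 1. At PT D1 1 of 26 G2/M genes was higher in library 2 (median ratio 0.59). In uninjured mice 6 of 26 were (median ratio 0.83). The makeup of the NSPCs also differed between the PT D7 libraries, but not in 1 direction. Activated type B cells were 0 of 15 NSPCs in PT D7 library 1 and 12 of 61 in library 2. Type C cells went the other way, at 40.0% and 27.9% of NSPCs. At PT D1 activated type B cells were 31.6% of NSPCs in library 1 and 36.5% in library 2, where G2/M genes were mostly lower. The G2/M sum also differed within type C cells at PT D7 (4016 and 11658 CPM). The part of cell numbers in the split was not tested.

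Of the other cell-cycle genes of the published S and G2/M scoring lists, 49 were tested in NSPCs and 0 were called in any of the 3 comparisons (edgeR). Between PT D7 and PT D1 the lowest p was that of Hmmr, a spindle protein (log2 fold change 1.85 ± 0.52 (SE), edgeR adjusted p = 0.107). Next came Pola1, the catalytic subunit of polymerase alpha (1.77 ± 0.54 (SE), edgeR adjusted p = 0.153), and Hn1 (0.80 ± 0.26 (SE), adjusted p = 0.185). At PT D1 the lowest p were those of Anp32e, a histone chaperone (0.68 ± 0.26 (SE)), Pola1 (-1.41 ± 0.54 (SE)) and Ttk, a checkpoint kinase (-1.54 ± 0.60 (SE)), and at PT D7 against uninjured those of Hmmr (1.09 ± 0.47 (SE)), G2e3 (0.82 ± 0.37 (SE)) and Usp1 (0.71 ± 0.33 (SE)), with edgeR adjusted p of 0.203, 0.204 and 0.208 and of 0.995 for the last 3.

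To count cells, each cell was thinned to 1000 UMIs and those with UMIs of at least 3 of the 49 genes were counted. Of type C cells 46 of 47 had at least 3, of activated type B cells 38 of 45, of neuroblasts 20 of 80 and of quiescent type B cells 5 of 50. Among uninjured NSPCs this was 31 of 75 (41.3%, exact 95% interval 30.1 to 53.3), among those of PT D1 35 of 71 (49.3%, 37.2 to 61.4) and among those of PT D7 43 of 76 (56.6%, 44.7 to 67.9), and the intervals, which cover counting error only, overlap. By library the shares were 43.8 and 40.7 (uninjured), 57.9 and 46.2 (PT D1), and 60.0 and 55.7 (PT D7) percent. With 2 libraries against 2 no exact permutation test can go below p = 0.33, so no test was made.

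Subclusters and conditions crossed unevenly, but the contrasts between conditions changed with the depth of thinning. Of activated type B cells 8 of 8 uninjured ones had at least 3 of the genes, 19 of 25 from PT D1 and 11 of 12 from PT D7, and the lower share at PT D1 lay in library 2 (13 of 19), library 1 having 6 of 6. The 7 activated type B cells with fewer than 3 genes held 522 CPM of Egfr, the receptor that marks activation, against 378 in the other 38. Of quiescent type B cells 0 of 17 had at least 3 in uninjured mice (which allows up to 17.6%, the share that 3 cells would give), 4 of 18 from PT D1 and 1 of 15 from PT D7. The 5 quiescent cells with at least 3 genes held 178 CPM of Gfap, the astroglial filament of type B cells, and the other 45 held 1026. The 20 neuroblasts with at least 3 genes held 613 CPM of Dcx, the microtubule protein of neuroblasts, and the other 60 held 776. Thinned to 2000 UMIs, the quiescent counts were 4 of 17 (uninjured), 3 of 16 (PT D1) and 3 of 15 (PT D7). The higher count at PT D1 was thus absent at that depth. With no thinning the quiescent counts were 15 of 17, 15 of 18 and 11 of 15. The activated type B counts at 2000 UMIs were 8 of 8, 23 of 25 and 11 of 12, in the same order. There the PT D1 share was no longer below that of PT D7.

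The phase the authors gave each cell was computed from many of the same genes and is no independent support. All 47 type C cells were called S (25) or G2M (22), as were 41 of 45 activated type B cells (21 and 20), 32 of 80 neuroblasts (17 and 15) and 3 of 50 quiescent type B cells (1 and 2). The median G2M-called type C cell held UMIs of 35.5 of the 49 genes and the median S-called one 23, at median depths of 9356 and 6737 UMIs. S calls in neuroblasts rested on less: the median held 7 of the genes and 10 UMIs of them, against 23 genes and 60 UMIs in G2M-called neuroblasts. Called S or G2M were 37 of 75 uninjured NSPCs, 37 of 71 from PT D1 and 49 of 76 from PT D7.

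In the microglia class the genes were low. The 416 cells held 1652 UMIs of them among 2231311, a summed level of 284 CPM for S-phase and 457 for G2/M genes. Without the 11 cells with more NSPC markers the sums were 269 and 274, and the median cell held 2 UMIs. G2/M genes were the more affected: the 11 cells gave 41.7% of the G2/M and 7.58% of the S-phase UMIs, and their G2/M sum (7088 CPM) was of the size seen in type C cells (9126). In the other 405 cells the levels were 0.520% to 15.4% of those in type C cells, lowest for Bub1 and highest for Slbp, with Tyms at 15.3%, Pcna at 10.8% and Mcm3 at 10.4%, and Mki67 at 1.83% and Top2a at 1.95%. The background from free RNA was not measured, since no empty wells were used here.

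Of microglia 16 of 416 had at least 3 of the genes after thinning: 4 of 155 uninjured (2.58%, exact 95% interval 0.708 to 6.48), 7 of 147 from PT D1 (4.76%, 1.94 to 9.57) and 5 of 114 from PT D7 (4.39%, 1.44 to 9.94). Of these 16 cells 7 were among the 11 with more NSPC markers. Without the 11, the counts were 1 of 151, 5 of 142 and 3 of 112. Of the 14 microglia called G2M 8 were among the 11, and of the 15 called S none was. Of the 15 S-called cells 5 held UMIs of at most 2 of the 49 genes, without any thinning. Among the 405 cells, 2 of the 10 with at least 3 genes after thinning or many before it stood out, and both came from PT D7: a homeostatic microglia of library 1 with 10 microglial and 0 NSPC markers held 20 of the genes (32 UMIs), and a disease-associated microglia of library 2 with 10 and 6 markers held 34 (86 UMIs, of 15253 in all).

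**Figure D5:**
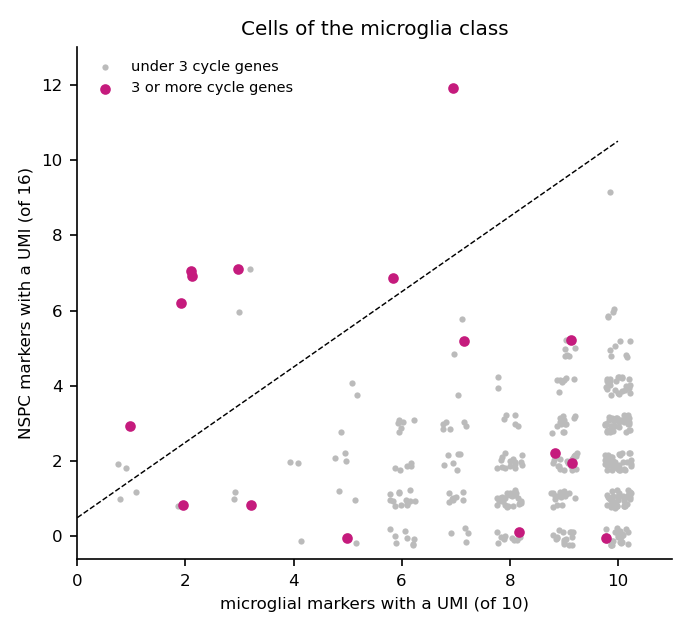
The 416 cells of the microglia class by the number of microglial markers (horizontal) and NSPC markers (vertical) with a UMI, with points moved slightly at random to show overlaps, and colored where at least 3 of the 49 genes were held after thinning to 1000 UMIs. The 11 cells above the dashed line held more NSPC than microglial markers, and 7 of them are colored, against 9 of the 405 below it.

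Over libraries, 15 of the 49 genes could be tested in microglia, and 0 were called in each comparison (edgeR), where of all genes 5.7% were called for PT D1 and 0.165% for PT D7, each against uninjured, and 3.8% between the PT conditions, and 0, 1 and 2 genes reached an unadjusted p under 0.05. DESeq2 called 0. Log2 fold changes were above 0 for 3, 13 and 13 of the 15, against 52.7%, 49.3% and 49.5% of all genes. The last 2 counts rested on PT D7 library 2, without which 4 and 7 of 15 were above 0, and the first on uninjured library 2, without which 17 of the 19 genes then tested were, and on PT D1 library 1, without which 11 of 19 were. At PT D7 all 10 G2/M genes tested were higher in library 2 than in library 1, where 50.1% of all genes were. Library 2 held both of the PT D7 cells among the 11. The split was not particular to PT D7: library 2 was higher for all 10 in uninjured mice (50.0% of all genes) and for 8 at PT D1 (46.4%). Mki67 was at 5.66 and 29.1 (uninjured), 3.04 and 19.4 (PT D1), and 20.9 and 77.9 (PT D7), and between PT D7 and PT D1 its log2 fold change was 2.04 ± 0.87 (SE) (edgeR adjusted p = 0.23), from 0.83 to 3.90 when 1 library was left out. In microglia libraries of the same number deviated together, and with the library number, which is not certain for PT D7, as a replicate block Mki67 passed (log2 fold change 2.11, edgeR adjusted p = 0.0275). It was the 1 call among the 49 genes, and the share of all genes called with the block is not set beside it. Among the 405 cells Mki67 held 2 and 4 UMIs (uninjured), 1 and 5 (PT D1), and 5 and 12 (PT D7), and 8 of these 17 PT D7 UMIs came from the 2 cells with most of the genes. Pcna was at 39.6 and 60.2 (uninjured), 79.0 and 60.7 (PT D1), and 79.4 and 96.4 (PT D7). Both PT D7 libraries were above the other 4, but PT D7 library 1 and PT D1 library 1 were nearly equal. Without TMM scaling they stood at 64.4 and 72.3 CPM, so this order rested on the scaling. Without the 11 cells 5 genes could be tested and 0 were called.

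Whether the change at PT D1 or PT D7 differed between NSPCs and microglia was tested in 1 fit over both classes, with 46 genes tested. None was called for the PT D1 difference, where 0.24% of all genes were, nor for the PT D7 difference, where 0.0399% were (edgeR, with 0 and 1 genes at an unadjusted p under 0.05). The 1 gene was Uhrf1, with a difference of -6.14 ± 1.57 (SE) on the log2 scale at PT D7 (edgeR adjusted p = 0.134), which rests on 11 UMIs in all microglia. Other cell-cycle genes gave 0 calls in microglia (14 tested) and in the difference (51 tested), with the lowest p in microglia for Tubb4b, a tubulin, at PT D1 (1.07 ± 0.45 (SE)), for Hjurp, the chaperone of Cenpa, at PT D7 against uninjured (0.87 ± 0.48 (SE)) and for Anp32e between PT D7 and PT D1 (1.09 ± 0.35 (SE)), with edgeR adjusted p of 0.188, 0.755 and 0.115.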

How the data were processed

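Libraries were made by mCEL-Seq2, which counts molecules by UMI from the 3′ end. Per the submitters' notes, bcl2fastq 2.17.1.14 split the reads and the genome build was GRCm39. The authors deposited whole-number UMI counts per gene and cell, kept cells by total and mitochondrial UMIs, and gave class, subcluster and phase per cell with the deposited S and G2M scores. The percent of mitochondrial UMIs per cell was computed by the authors from the counts. Spike-in rows (92) held 0 UMIs, and 11 columns of the cell table were not used.

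UMI counts were summed per library and class. edgeR 4.0.16 (quasi-likelihood, TMM, filterByExpr, R 4.3.3) was fitted to all genes of the 3 conditions together, with Benjamini-Hochberg adjustment and a call at an adjusted p under 0.05, and DESeq2 1.42.0 was an alternative. The difference between classes was fitted with library as a block. Each edgeR SE was derived as the absolute log2 fold change divided by the square root of the F statistic of its test. The edgeR step was tested on simulated data. Shares of cells used 1000 UMIs per cell and exact (Clopper-Pearson) 95% intervals, and a count of 0 the limit of 3 counts, which cover counting error only. NSPCs of a library held 82504 to 497292 UMIs. The library number of PT D7 was read from the last number in the cell names, since an earlier one is 1 in both libraries, and is not certain. The block and the same-number correlations depend on it. Same-number libraries deviated together in microglia (correlations 0.209, 0.184 and 0.254) and not in NSPCs, which rests on the data and not on the labels. No source used here names the mice or plates of a library, so batch and condition cannot be told apart. The paper reports that cells were processed on plates but does not place the libraries on them. Libraries of a condition may thus have shared a plate, and p values may then measure the spread within it. Without TMM the median log2 fold change of all genes was 0.10 at PT D1 in NSPCs and -0.25 at PT D7 in microglia.

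Named genes were all 49, with values in every library at a mean of at least 50 CPM, and the 3 other cycle genes with the lowest p per comparison. The genes, lists and tests were chosen with earlier results of these data known. Alternatives were other scaling, filters, blocks, cell filters and leaving out each library.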

Additional observations from a re-analysis of the deposited data

Results flagged for a closer look

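The 20 cells that the authors placed in neither class were in no comparison. Their summed level of the 49 genes was 562 CPM in uninjured mice (4 cells of 1 library, exact 95% interval 382 to 797), 849 at PT D1 (8 cells, 641 to 1103) and 414 at PT D7 (8 cells, 273 to 602). The PT D1 value was picked out because these cells are outside the comparisons and their level was above that of the uninjured ones, although the 2 intervals overlap and cover counting error only. None of the 20 cells had at least 3 of the genes after thinning. No test was made, since the uninjured cells came from 1 library.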

How the results depend on the processing

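With 2 libraries per condition, single libraries set most of the counts. Where 1 is left out, the lone library of that condition is assumed to vary like the others. The counts of members called below, for these fits and for the other settings, are given without the share of all genes called. Whether any of them is high for its fit can thus not be told, and they show only how far the count moves. Members called in NSPCs ranged from 0 to 1 at PT D1, from 0 to 1 at PT D7 against uninjured and from 0 to 9 between PT D7 and PT D1 when a library was left out. The last count, 1 in the report, was 0 in DESeq2, 0 with at least 10 UMIs in every library, 0 with a replicate block, 0 with at most 10% mitochondrial UMIs, 0 without cells with markers of the other class, 2 with no filter, and 2 without cells holding more markers of the other class than of their own (chosen after seeing the data). The filter of at least 10 UMIs in every library left out Aspm, the gene called in the main fit, so its count of 0 says nothing about Aspm. NSPC libraries of the same number did not deviate together (correlations 0.0798, -0.0545 and -0.0187), so they share only a number. In microglia the count between PT D7 and PT D1 was 1 with no filter and 1 with the replicate block, and the block changed no other count of members called. The mitochondrial limit left 4 members tested and turned Top2a to 2.05 at PT D1, and Top2a to -0.62 and Ube2c to -0.24 between PT D7 and PT D1. It left only 2 NSPCs in uninjured library 1 (14071 UMIs) and 2 in PT D1 library 1 (8662 UMIs). Values under this limit thus rest on very few cells and cannot show whether a result holds. Leaving out each library, the log2 fold change ran from -0.27 to 1.24 for Ccnb1 at PT D7 against uninjured, and between PT D7 and PT D1 from -0.93 to 2.37 for Aurka, -0.57 to 1.41 for Cdc20, -0.49 to 1.27 for Cdk1, -0.086 to 1.41 for Kif11, -0.19 to 1.46 for Kif23, -0.19 to 1.83 for Nusap1, -0.11 to 1.18 for Top2a and -0.76 to 1.76 for Ube2c, with each lowest value, below 0, from leaving out PT D7 library 2. The cause of these changes was not tested. Of 368 values for 27 single-gene results, 328 kept direction and side of the threshold, 12 reversed direction and the rest changed side. The 27 were picked by an unadjusted edgeR p under 0.05 in the main fit. All but Aspm between PT D7 and PT D1 were uncalled there, so for them the same side means staying uncalled.

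Shares of NSPCs with at least 3 of the genes, for uninjured, PT D1 and PT D7, were 53.4%, 60.3% and 66.2% thinned to 2000 UMIs, 92.0%, 83.1% and 88.2% with no thinning, 53.3%, 71.8% and 68.4% for at least 2 genes, and 34.7%, 36.6% and 46.1% for at least 5. The order of the conditions thus changed with no thinning and at 2 genes. Leaving out a library, they ranged from 40.7% to 43.8%, from 46.2% to 57.9% and from 55.7% to 60.0%. In microglia they were 10.5%, 8.82% and 11.3% at 2000 UMIs, where PT D1 was the lowest of the 3 and not the highest, 43.2%, 40.8% and 36.8% with no thinning, and 9.68%, 10.9% and 13.2% for at least 2 genes.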
